A study of Homo sapiens with 6 samples.

Results

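The alpha-ketoglutarate dependent dioxygenases are enzymes that use oxygen, iron and alpha-ketoglutarate to hydroxylate or demethylate their substrates. The 45 members described here were chosen by name as the histone, DNA and RNA demethylases and the prolyl, lysyl and HIF hydroxylases of this kind. All 45 were found among the 64252 gene rows of the deposited count table, and all 45 passed the filter on low counts that left 18734 genes for testing. The cells sequenced were SK-N-BE(2), derived from a human neuroblastoma, after transfection with short hairpin RNA 1 against BCAT1, short hairpin RNA 2 against BCAT1, or a control hairpin (labelled shControl, and shNC in the treatment label), with 2 libraries in each group. The cells carry no other labelled agent or allele. BCAT1 is the cytosolic transaminase that moves the amino group of branched-chain amino acids onto alpha-ketoglutarate, which gives glutamate. Everything here comes from 1 cell line, and whether the replicates were separate cultures is not given in the sources used here, so the p-values cover the spread between these libraries and no more.

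Alpha-ketoglutarate is consumed in each turn of these enzymes, and succinate, which forms from it, and related acids such as fumarate can inhibit them. The TET enzymes oxidise methylcytosine in DNA, the JmjC lysine demethylases remove methyl groups from histones, and FTO and ALKBH5 remove them from adenosine in RNA. The EGLN prolyl hydroxylases mark the alpha subunits of the hypoxia-inducible factors (HIF) for destruction through VHL when oxygen is present. The P4HA and PLOD enzymes hydroxylate proline and lysine in collagen. The libraries measure messenger RNA of these enzymes, not enzyme activity or alpha-ketoglutarate.

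Total counts per library lay between 32333416 and 39321388. BCAT1 itself had 55.8 and 55.3 CPM (counts scaled to a common library size by TMM) with hairpin 1 and 116 and 111 CPM with hairpin 2, against 459 and 475 CPM in control libraries. That was a log2 fold change of −3.07 with hairpin 1 and −2.04 with hairpin 2. The 8 markers of noradrenergic neuroblastoma cells that were checked all averaged 1 CPM or more. Their summed level was 2740 to 2989 CPM in knockdown libraries and 3581 to 3609 CPM in control libraries.

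Messenger RNA of these enzymes was higher in the knockdown more often than lower, an excess that lay mainly in the TET genes and histone demethylases. In edgeR's quasi-likelihood test of both hairpins against control, 24 members rose and 9 fell. The test used Benjamini-Hochberg adjustment over all tested genes and a threshold of 0.05. It compares the mean of both hairpins with control, so it can call a member that moved with a single hairpin. Called higher with each hairpin were 16 members, and called lower with each were 6. These counts were taken for the members alone. The share of all genes called alike with each hairpin was not counted, so they show no excess. Over both hairpins 16 of the 20 TET genes and histone demethylases rose and 0 fell. In the AlkB family 3 rose and 3 fell, among HIF hydroxylases 2 and 2, and among collagen hydroxylases 0 and 2. Of the other JmjC proteins 1 rose and 2 fell, and of the remaining 4 members 2 rose. Over all genes the test of both hairpins called 50.0%, of which 23.6% of genes were higher and 26.4% were lower, so a call as such sets no gene apart here. Among the members 73.3% were called, and their median log2 fold change was 0.16, with a range of −0.83 to 1.07, against a median of −0.01 over all genes. All members code for protein, while the 18734 genes tested include others. In a fit of the 13907 protein-coding genes alone, 8424 genes and 33 members were called, so the excess of members is smaller on that base. A difference of more than 1.5-fold, tested as such, was shown by JMJD1C, KDM7A, TET2, TET3 and FTO upwards and by PLOD1 downwards. This test was run without the correction for GC content and length that is described below. With it, log2 fold changes were 0.25 for JMJD1C, 0.40 for FTO, 0.52 for KDM7A, 0.61 for TET2, 0.70 for TET3 and −0.63 for PLOD1. The 1.5-fold test called 5.55% of all genes, 2.83% higher and 2.71% lower, and these 6 of 45 members are 13.3%. In 21 members all 4 knockdown libraries lay above both control libraries and in 8 all 4 lay below, whereas 16 overlapped. Among all genes 22.0% were above and 23.6% were below in that way, 45.6% in all. In bulk RNA, fewer cells with a transcript and less of it per cell cannot be told apart.

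**Figure D1:**
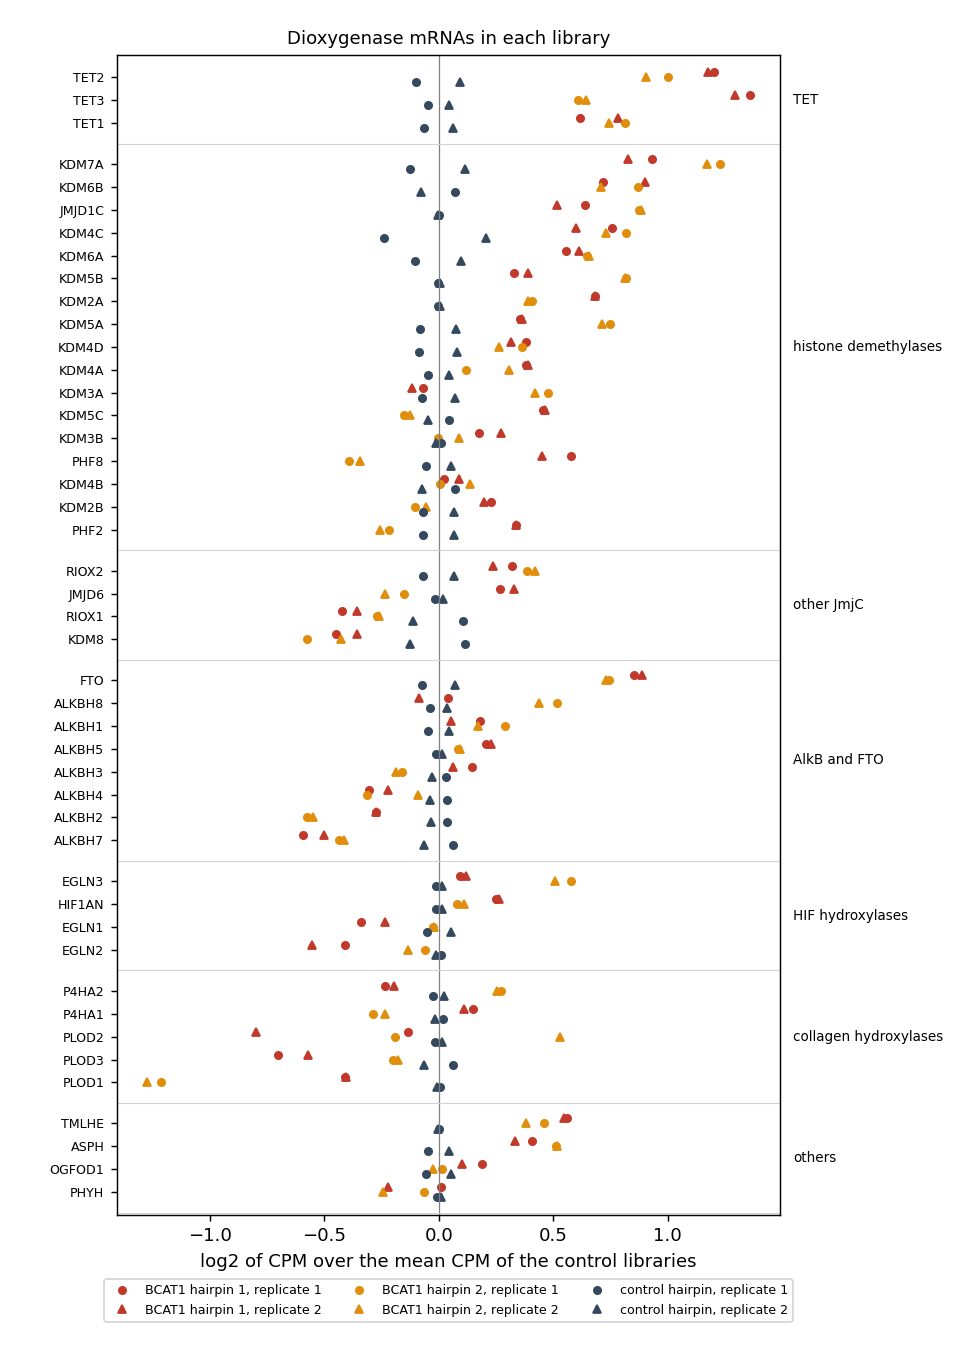
Level of each of the 45 mRNAs in each library, as log2 of CPM over the mean CPM of the 2 control libraries, grouped by role; red points are hairpin 1, orange points hairpin 2 and dark points control. The TET row and most histone demethylases lie to the right of the control points, and PLOD1 lies to the left with both hairpins.

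The fold changes also followed transcript length and GC content, and that bears on every group below. Across the 45 members, log2 fold change had a Spearman correlation of 0.66 with transcript length and −0.50 with GC content, given as a description across genes that share the same libraries. Across 13907 protein-coding genes it was 0.43 with length and −0.44 with GC content, and −0.01 and −0.004 after each library was corrected for both. The 24 members that rose had a median transcript of 6372 bases and 46.0% GC, the 9 that fell had 2462 bases and 58.6% GC, and all tested protein-coding genes had 3172 bases and 49.6% GC. After the correction 21 members were called higher and 6 lower over both hairpins, with a median of 0.12. Of the 13907 protein-coding genes 51.0% were called after it, 24.5% higher and 26.5% lower. Beside a value below, the corrected one is given where the correction ends or makes a call, turns a direction or moves a called value by more than 1.5 times.

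**Figure D2:**
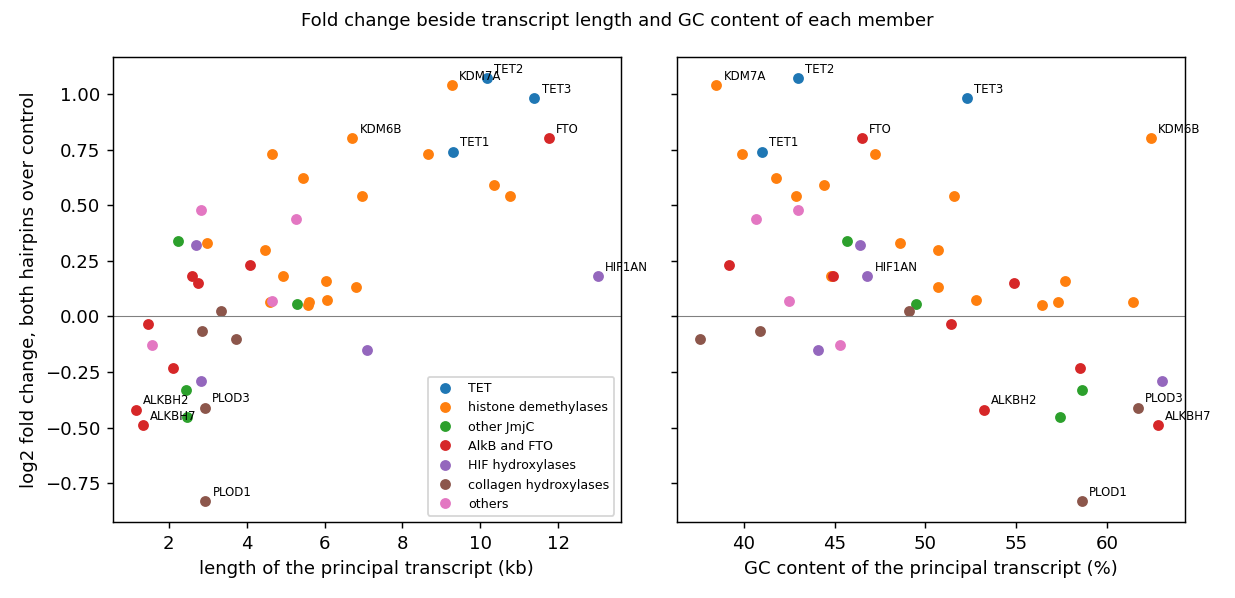
Log2 fold change of both hairpins over control for each of the 45 members, plotted against the length of the principal transcript in kilobases (left) and its GC content in percent (right), coloured by role. Long transcripts such as TET2, TET3 and FTO lie at the top, while the short transcripts of ALKBH2 and ALKBH7 and the GC-rich PLOD1 and PLOD3 lie at the bottom.

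All 3 TET genes rose. TET3, the family member best known for its action in the zygote, had 95.0 and 90.9 CPM with hairpin 1 and 56.5 and 57.8 CPM with hairpin 2, against 35.9 and 38.2 CPM in control libraries. TET2, a frequent target of mutation in blood cancers, had 38.6 and 37.9 CPM with hairpin 1 and 33.6 and 31.5 CPM with hairpin 2, against 15.7 and 17.9 CPM in control libraries. TET1, which has a CXXC domain that binds unmethylated CpG, had 18.8 and 21.1 CPM with hairpin 1 and 21.5 and 20.5 CPM with hairpin 2, against 11.7 and 12.8 CPM in control libraries. No knockdown library overlapped a control library for any of the 3. The log2 fold change over both hairpins was 1.07 for TET2 (SE 0.075, adjusted p = 1.1e-05), 0.98 for TET3 (SE 0.047, adjusted p = 2.7e-06) and 0.74 for TET1 (SE 0.085, adjusted p = 0.00014). After the correction TET2 was at 0.61 and TET1 at 0.26, and all 3 stayed past the threshold. TET3 was the one that differed most between the hairpins, at 0.63 with hairpin 2 (0.36 after the correction) and 1.33 with hairpin 1 (hairpin 2 minus hairpin 1 −0.70, SE 0.052, adjusted p = 1.3e-05).

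The 250 bases before the RefSeq start of the TET genes and of PLOD1 are printed here because the TET genes rose together and PLOD1 had the largest fall among the members. They are from GRCh38.p14, 5′ to 3′ on the strand of the gene, and RefSeq starts can differ from those of other annotations. TET1 is at chr10:68560087-68560336, TET2 at chr4:105145625-105145874, TET3 at chr2:73984660-73984909 and PLOD1 at chr1:11934467-11934716, all on the plus strand. Capitals mark matches on either strand to CACGTG, the E-box bound by MYC family proteins, or to ACGTG or GCGTG, the core of the HIF response element.
TET1: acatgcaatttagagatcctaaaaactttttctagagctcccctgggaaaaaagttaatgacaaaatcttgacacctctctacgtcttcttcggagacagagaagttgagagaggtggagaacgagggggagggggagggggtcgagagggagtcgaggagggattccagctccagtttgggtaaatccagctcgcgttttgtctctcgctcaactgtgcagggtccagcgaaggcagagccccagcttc
TET2: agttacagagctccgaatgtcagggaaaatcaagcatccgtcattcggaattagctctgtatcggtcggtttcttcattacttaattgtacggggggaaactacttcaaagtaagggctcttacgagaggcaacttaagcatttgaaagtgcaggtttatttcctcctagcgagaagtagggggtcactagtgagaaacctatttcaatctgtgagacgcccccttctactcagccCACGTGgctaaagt
TET3: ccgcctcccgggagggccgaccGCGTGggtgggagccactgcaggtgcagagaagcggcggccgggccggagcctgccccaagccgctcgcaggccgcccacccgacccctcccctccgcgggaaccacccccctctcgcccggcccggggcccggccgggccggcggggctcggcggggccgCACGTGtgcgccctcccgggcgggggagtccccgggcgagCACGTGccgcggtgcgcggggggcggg
PLOD1: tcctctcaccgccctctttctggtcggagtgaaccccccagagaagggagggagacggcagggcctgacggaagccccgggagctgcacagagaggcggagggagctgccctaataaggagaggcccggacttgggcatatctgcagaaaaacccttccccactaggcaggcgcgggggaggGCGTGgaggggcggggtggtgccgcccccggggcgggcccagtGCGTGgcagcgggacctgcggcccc
TET2 holds 1 E-box, TET3 holds 2, and TET1 and PLOD1 hold none. Each CACGTG also contains ACGTG on both strands, so it counts as a HIF core too. A promoter was found for 41 of the 45 members. The E-box was in 6 of them, which is 14.6%, against 6.32% of 34943 promoters of the same length, and the 6 were TET2, TET3, KDM4B, KDM4C, KDM6A and EGLN2. Of these, TET2, TET3, KDM4C and KDM6A rose, EGLN2 fell and KDM4B did not pass. The HIF core was in 58.5% of the member promoters against 43.2% of all, and CCAAT was in 31.7% against 32.0%. The 34943 are all promoters, not matched to the members in expression or GC content, so the shares are not compared like for like. These are matches of letters and not sites of binding.

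The DNA methylation genes that work beside the TET enzymes moved less. Of 9 listed methyltransferases and methyl-CpG readers, 1 rose and 3 fell over both hairpins, with a median log2 fold change of −0.09, and 2 rose and 5 fell after the correction. DNMT3B, a de novo methyltransferase, had 30.3 and 33.3 CPM with hairpin 1 and 21.8 and 20.5 CPM with hairpin 2, against 18.6 and 17.6 CPM in control libraries, a log2 fold change of 0.52 (SE 0.073).

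Among the 17 JmjC histone demethylases, 13 rose over the mean of both hairpins (median log2 fold change 0.33, lowest 0.05), and KDM2B, KDM4B, PHF8 and PHF2 did not pass. With hairpin 1 alone 15 rose and 0 fell, and with hairpin 2 alone 10 rose and 3 fell. After the correction 11 rose, KDM4B among them at 0.15, and the other 6 did not pass, with a median of 0.16 and a lowest value of −0.05. KDM7A, which removes methyl groups linked to silent chromatin, had 25.0 and 23.2 CPM with hairpin 1 and 30.7 and 29.5 CPM with hairpin 2, against 12.0 and 14.2 CPM in control libraries. Every knockdown library was above both controls, and the log2 fold change was 1.04 (SE 0.089, adjusted p = 2.8e-05), or 0.52 after the correction. KDM6B, an eraser of the Polycomb methyl mark, had 20.8 and 23.6 CPM with hairpin 1 and 23.1 and 20.7 CPM with hairpin 2, against 13.3 and 12.0 CPM in control libraries. Its log2 fold change was 0.80 (SE 0.092, adjusted p = 0.00014), and 0.83 after the correction, in a transcript of 62.4% GC. KDM6A, the other eraser of that mark and a gene on the X chromosome, had 32.4 and 33.7 CPM with hairpin 1 and 34.5 and 34.7 CPM with hairpin 2, against 20.5 and 23.6 CPM in control libraries, a log2 fold change of 0.62 (SE 0.072) or 0.33 after the correction.

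JMJD1C, a relative of the KDM3 demethylases, had 73.0 and 67.1 CPM with hairpin 1 and 86.0 and 86.4 CPM with hairpin 2, against 46.9 and 46.8 CPM in control libraries. It rose by 0.73 on the log2 scale (SE 0.047, adjusted p = 7.3e-06), and by 0.25 after the correction. KDM3A, a demethylase of histone H3 that hypoxia induces, had 40.7 and 39.4 CPM with hairpin 1 and 59.4 and 57.2 CPM with hairpin 2, against 40.6 and 44.8 CPM in control libraries. The hairpin 2 libraries stood above control, at 0.45 (SE 0.063), while hairpin 1 was at −0.10 and did not pass (adjusted p = 0.26). After the correction hairpin 2 was at 0.22, and hairpin 1 was called lower at −0.27 (adjusted p = 0.0025). The difference between the hairpins was 0.54 (SE 0.064, adjusted p = 0.00018).

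KDM5A and KDM5B, which erase a methyl mark of active promoters, were higher with both hairpins and more so with hairpin 2. KDM5B had 54.6 and 57.0 CPM with hairpin 1 and 76.6 and 76.4 CPM with hairpin 2, against 43.3 and 43.6 CPM in control libraries. KDM5A had 73.9 and 74.2 CPM with hairpin 1 and 97.0 and 94.6 CPM with hairpin 2, against 54.6 and 60.9 CPM in control libraries. The groups did not overlap for either gene. Over both hairpins KDM5B was at 0.59 (SE 0.043) and KDM5A at 0.54 (SE 0.050), and after the correction at 0.15 and 0.07, where KDM5A no longer passed (adjusted p = 0.14). With hairpin 1 alone the corrected values were −0.04 for KDM5B and −0.06 for KDM5A.

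KDM2A, which binds CpG islands and demethylates histone H3, had 224 and 224 CPM with hairpin 1 and 185 and 183 CPM with hairpin 2, against 139 and 140 CPM in control libraries. Its replicates differed little, and the log2 fold change was 0.54 (SE 0.033, adjusted p = 6.3e-06). KDM4C, of the KDM4 family that acts on trimethylated histone H3, had 5.42 and 4.87 CPM with hairpin 1 and 5.65 and 5.32 CPM with hairpin 2, against 2.72 and 3.70 CPM in control libraries. It rose by 0.73 (SE 0.16, adjusted p = 0.0045). With hairpin 1 alone KDM4C was at 0.68, a call that was lost without hairpin 1 replicate 1 (0.60, adjusted p = 0.065) or control replicate 1 (0.47, adjusted p = 0.070). KDM4A and KDM4D rose by 0.30 and 0.33. KDM3B was called higher at 0.13, but after the correction it was at −0.05 and did not pass (adjusted p = 0.3). Of the exonic bases of KDM4A, 40.2% are shared with the overlapping gene AL451062.3, so its counts are uncertain.

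KDM5C, PHF8 and PHF2 were pulled in opposite directions by the hairpins. PHF8, a demethylase whose loss is known from X-linked intellectual disability, had 52.2 and 47.7 CPM with hairpin 1 and 26.6 and 27.5 CPM with hairpin 2, against 33.6 and 36.3 CPM in control libraries. It was 0.52 above control with hairpin 1 (SE 0.071, adjusted p = 0.00040) and 0.37 below it with hairpin 2 (log2 fold change −0.37, SE 0.072, adjusted p = 0.0028). KDM5C, an X-linked relative of KDM5A, had 187 and 188 CPM with hairpin 1 and 123 and 125 CPM with hairpin 2, against 141 and 132 CPM in control libraries. The PHF2 libraries, of another PHD-finger demethylase, were at 54.6 and 54.5 CPM with hairpin 1 and 37.2 and 36.2 CPM with hairpin 2, against 41.2 and 45.2 CPM in control libraries. For all 3 genes the control libraries lay between those of the hairpins. KDM5C was at 0.46 with hairpin 1 and −0.14 with hairpin 2, and PHF2 at 0.34 and −0.23. The fall with hairpin 2 was lost for KDM5C without hairpin 2 replicate 1 (−0.13), hairpin 2 replicate 2 (−0.15) or control replicate 1 (−0.10), and after the correction (−0.10, adjusted p = 0.052). That of PHF2 was lost without hairpin 2 replicate 2 (−0.21) or control replicate 2 (−0.17).

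The genes that write histone methylation also rose more often than they fell. The 26 listed are histone methyltransferases and EED and SUZ12, subunits of such an enzyme that are not methyltransferases themselves. Of the 26, 15 rose and 3 fell over both hairpins, with a median of 0.25, and 13 rose and 4 fell after the correction. KMT2D, which methylates histone H3 at enhancers, had 110 and 118 CPM with hairpin 1 and 118 and 114 CPM with hairpin 2, against 64.1 and 63.3 CPM in control libraries. Its log2 fold change was 0.85 (SE 0.042), and its relatives KMT2C and KMT2A were at 0.94 (SE 0.038) and 0.77 (SE 0.039), or 0.60 and 0.41 after the correction. Of the flavin-dependent demethylases, which do not use alpha-ketoglutarate, KDM1A fell by 0.20 and KDM1B did not pass.

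**Figure D3:**
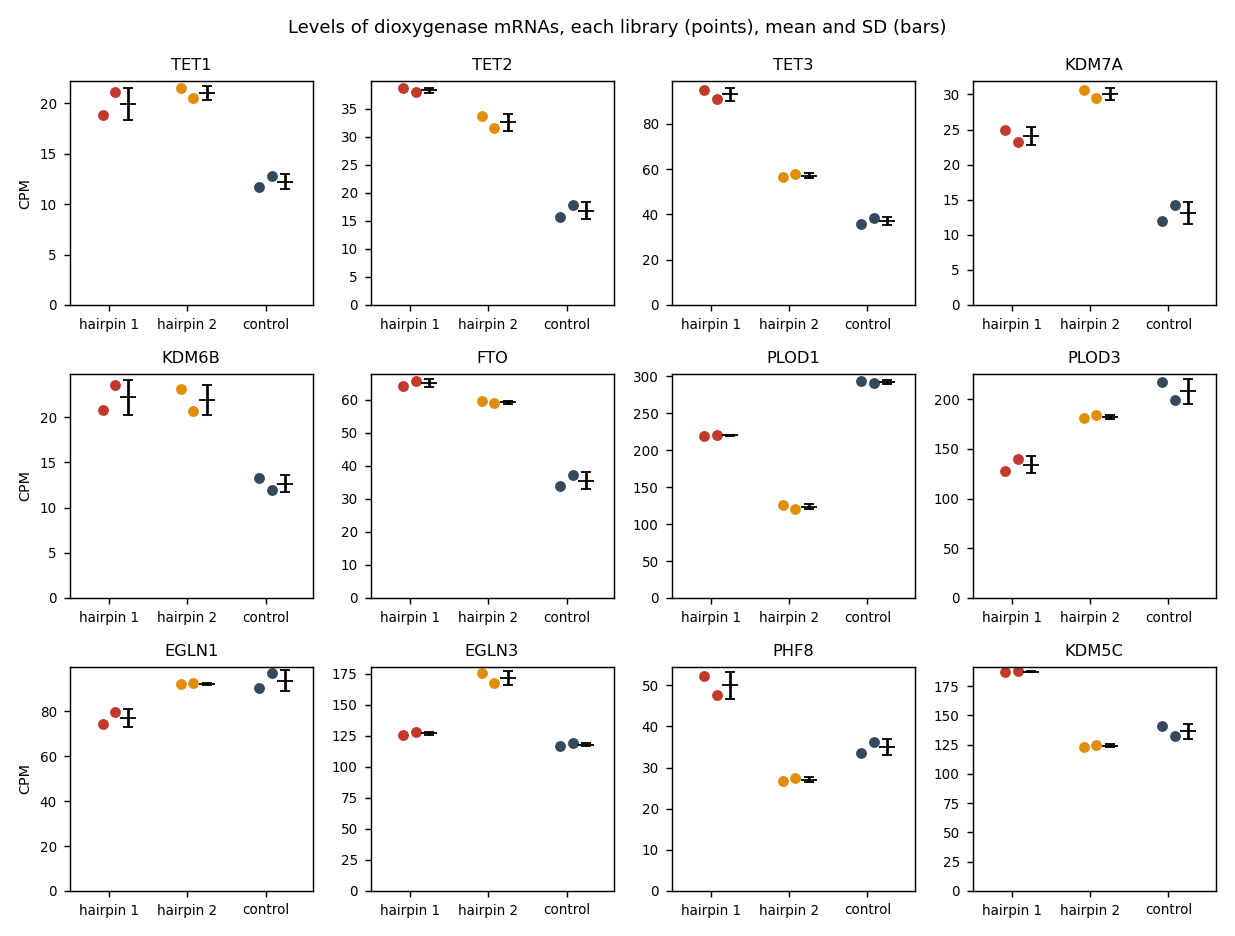
CPM of 12 of the enzymes in each library (points), with the mean and SD of the 2 libraries of each group (bars); each panel starts at 0 and has its own scale. The TET genes, KDM7A, KDM6B and FTO are higher with both hairpins, PLOD1 and PLOD3 are lower, and PHF8 and KDM5C lie above control with hairpin 1 and below it with hairpin 2.

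The other JmjC proteins act mainly on substrates other than histones. KDM8, an arginine hydroxylase, had 5.44 and 5.79 CPM with hairpin 1 and 4.98 and 5.52 CPM with hairpin 2, against 8.04 and 6.81 CPM in control libraries. It fell by 0.45 (SE 0.12, adjusted p = 0.011), a call lost without control replicate 1 (−0.33, adjusted p = 0.11) and after the correction (−0.22, adjusted p = 0.11). RIOX1 and RIOX2 hydroxylate histidines of ribosomal proteins. RIOX2 rose by 0.34 (SE 0.058, adjusted p = 0.0013), and 27.6% of its annotated exonic bases overlap CRYBG3 on the other strand. Whether the counting used strand is not given in the sources used here. RIOX1 fell by 0.33 (SE 0.075), a call lost without control replicate 1 (−0.21, adjusted p = 0.078) and after the correction (−0.07, adjusted p = 0.35). JMJD6, a lysyl hydroxylase of splicing factors, was at 0.30 with hairpin 1 and −0.19 with hairpin 2, or 0.18 and −0.32 after the correction. Its 54.9 and 57.2 CPM with hairpin 1 and 41.0 and 38.7 CPM with hairpin 2 lay on either side of 45.0 and 46.1 CPM in control libraries. The fall with hairpin 2 was lost without hairpin 2 replicate 2 (−0.15, adjusted p = 0.15) or control replicate 2 (−0.18, adjusted p = 0.088).

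FTO had the largest change among the AlkB family, the enzymes that repair or edit methylated bases in DNA and RNA. It had 64.1 and 65.8 CPM with hairpin 1 and 59.5 and 58.9 CPM with hairpin 2, against 33.8 and 37.3 CPM in control libraries. All 4 knockdown libraries were well above both controls, and the log2 fold change was 0.80 (SE 0.054, adjusted p = 9e-06), or 0.40 after the correction. ALKBH5, the other demethylase of adenosine in messenger RNA, rose by 0.15 (SE 0.038, adjusted p = 0.0089). That call was lost without control replicate 1 (0.14, adjusted p = 0.058), and the value was 0.30 after the correction.

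The other members of the family changed less or fell. ALKBH7, a mitochondrial protein, had 20.8 and 22.2 CPM with hairpin 1 and 23.2 and 23.6 CPM with hairpin 2, against 32.8 and 30.0 CPM in control libraries. ALKBH2, which repairs alkylated DNA, had 55.3 and 55.3 CPM with hairpin 1 and 44.9 and 45.8 CPM with hairpin 2, against 68.6 and 65.3 CPM in control libraries. Both were below control in all 4 knockdown libraries, by −0.49 (SE 0.067) for ALKBH7 and −0.42 (SE 0.043) for ALKBH2. After the correction neither passed, at 0.0005 for ALKBH7 (adjusted p = 1.0) and −0.05 for ALKBH2 (adjusted p = 0.32). Their transcripts are the shortest of the members, at 1332 and 1159 bases. ALKBH8, which modifies wobble uridine in transfer RNA, had 20.8 and 19.0 CPM with hairpin 1 and 28.9 and 27.4 CPM with hairpin 2, against 19.7 and 20.7 CPM in control libraries. It was called higher with hairpin 2, at 0.48, and not with hairpin 1, at −0.02, and the difference between the hairpins was 0.50 (SE 0.081, adjusted p = 0.0012). After the correction hairpin 2 no longer passed (0.17, adjusted p = 0.068) and hairpin 1 was called lower (−0.21, adjusted p = 0.025). ALKBH1 and ALKBH3 did not pass over both hairpins, and after the correction ALKBH3 was called higher at 0.23 (adjusted p = 0.0055). ALKBH4 fell by 0.23 (adjusted p = 0.046), and the call was lost with RLE scaling, with DESeq2, with no filter on low counts and after the correction. Of its exonic bases 25.3% overlap ORAI2 on the other strand.

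Writers and readers of methyladenosine in messenger RNA were set beside FTO and ALKBH5. Of 16 listed genes 10 rose and 2 fell over both hairpins (median 0.34), and 7 rose and 2 fell after the correction, with a median of 0.06. The reader YTHDC2 had 58.6 and 56.9 CPM with hairpin 1 and 53.5 and 49.8 CPM with hairpin 2, against 32.6 and 32.0 CPM in control libraries. Its log2 fold change was 0.76 (SE 0.052), or 0.39 after the correction. RBM15B, a partner of the methyltransferase complex, fell by 0.58 (SE 0.038).

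The HIF hydroxylases did not move as a group. EGLN3, a prolyl hydroxylase that HIF induces, had 126 and 128 CPM with hairpin 1 and 176 and 168 CPM with hairpin 2, against 117 and 119 CPM in control libraries. It was above control mainly with hairpin 2, at 0.54 (SE 0.041, adjusted p = 1.9e-05), while hairpin 1 was at 0.10 and did not pass (adjusted p = 0.070). EGLN2 and EGLN1, the other prolyl hydroxylases, were called lower with hairpin 1 and not with hairpin 2. EGLN2 had 35.8 and 32.4 CPM with hairpin 1 and 45.6 and 43.3 CPM with hairpin 2, against 47.9 and 47.2 CPM in control libraries, but 30.6% of its exonic bases overlap the read-through gene RAB4B-EGLN2. For EGLN1 the values were 74.2 and 79.8 CPM with hairpin 1 and 92.1 and 92.5 CPM with hairpin 2, against 90.4 and 97.2 CPM in control libraries. Hairpin 1 was at −0.48 for EGLN2 (SE 0.067) and at −0.28 for EGLN1 (SE 0.053), and hairpin 2 was at −0.10 and −0.02, neither past the threshold. After the correction EGLN1 was called lower with both hairpins, at −0.59 with hairpin 1 and −0.40 with hairpin 2, and EGLN2 was at −0.26 with hairpin 1 and called higher with hairpin 2, at 0.20. The hairpins differed in all 3 EGLN genes, by 0.26 for EGLN1, 0.38 for EGLN2 and 0.44 for EGLN3.

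The correction changed calls in this group. EGLN1 was at −0.15 over both hairpins and at −0.49 after it, and EGLN2 was at −0.29 and at −0.03 after it, where it did not pass (adjusted p = 0.72). HIF1AN, the asparaginyl hydroxylase that blocks the activation domain of HIF, had 85.8 and 86.7 CPM with hairpin 1 and 76.2 and 77.9 CPM with hairpin 2, against 71.5 and 72.8 CPM in control libraries. It was called higher over both hairpins at 0.18 (SE 0.036, adjusted p = 0.0034) and lower after the correction at −0.21 (adjusted p = 0.00065), so its direction depends on that step. With 13011 bases it has the longest principal transcript of the 45. The EGLN1 call over both hairpins was lost without hairpin 1 replicate 1 (−0.13), hairpin 2 replicate 1 (−0.16), hairpin 2 replicate 2 (−0.15) or control replicate 2 (−0.10).

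Messenger RNA of a substrate of these hydroxylases differed between the hairpins by 2.38 on the log2 scale. HIF1A had 98.8 and 98.2 CPM with hairpin 1 and 517 and 507 CPM with hairpin 2, against 415 and 438 CPM in control libraries. With hairpin 1 it was at −2.11 (SE 0.044, adjusted p = 7.1e-08), and with hairpin 2 at 0.26 (SE 0.041, adjusted p = 0.00086). After the correction the rise with hairpin 2 was gone, at −0.04 (adjusted p = 0.35). VHL, which binds the hydroxylated HIF subunits, had 54.8 and 50.1 CPM with hairpin 1 and 49.5 and 48.3 CPM with hairpin 2, against 35.2 and 34.6 CPM in control libraries, a rise of 0.54 (SE 0.054). Of 10 HIF subunits and VHL complex genes 4 rose and 6 fell over both hairpins, and 3 rose and 7 fell after the correction. Of 24 HIF target genes 5 rose and 12 fell (median −0.24), and 5 rose and 9 fell after the correction. The glycolytic genes TPI1 and ENO1 were at −0.63 (SE 0.040) and −0.56 (SE 0.032), or −0.22 and −0.29 after the correction, and the glucose transporter SLC2A1 was at −0.52 (SE 0.038).

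Of the 5 collagen hydroxylases the lysyl hydroxylases PLOD1 and PLOD3 fell over both hairpins, and the other 3 did not pass. After the correction P4HA1 was called lower too, at −0.22 (adjusted p = 0.0031), against −0.07 without it. PLOD1 had 220 and 221 CPM with hairpin 1 and 126 and 121 CPM with hairpin 2, against 294 and 291 CPM in control libraries. It was −0.41 with hairpin 1 (SE 0.040), or −0.25 after the correction, and −1.25 with hairpin 2 (SE 0.041), the largest fall of any member in these comparisons. PLOD3 had 128 and 140 CPM with hairpin 1 and 181 and 184 CPM with hairpin 2, against 217 and 199 CPM in control libraries. It was lower in all 4 knockdown libraries, and here the fall was smaller with hairpin 2, at −0.19 (SE 0.057), than with hairpin 1, at −0.63 (SE 0.058), a difference of 0.45. Over both hairpins PLOD3 was at −0.41 (SE 0.049, adjusted p = 0.00017), or −0.17 after the correction. Its fall with hairpin 2 was lost without hairpin 2 replicate 1 (−0.18), hairpin 2 replicate 2 (−0.19) or control replicate 1 (−0.13), and after the correction it was 0.10 (adjusted p = 0.087).

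P4HA1 and P4HA2, the catalytic subunits of collagen prolyl hydroxylase, differed between the hairpins in opposite directions, by −0.39 and 0.48. P4HA1 had 66.3 and 64.6 CPM with hairpin 1 and 49.0 and 50.9 CPM with hairpin 2, against 60.6 and 59.1 CPM in control libraries. P4HA2 had 56.8 and 58.4 CPM with hairpin 1 and 80.7 and 79.6 CPM with hairpin 2, against 65.7 and 67.9 CPM in control libraries. With hairpin 2 P4HA1 fell by 0.26 (SE 0.049), or by 0.46 after the correction, and with hairpin 1 it was at 0.13 (adjusted p = 0.058). P4HA2 was at −0.21 with hairpin 1 (SE 0.045, adjusted p = 0.0044) and 0.26 with hairpin 2 (SE 0.045, adjusted p = 0.0014). PLOD2 was close to absent, with 0.28 to 0.69 CPM in the 6 libraries, and no difference was detectable at that depth (log2 fold change −0.10, SE 0.37).

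The genes that act with these hydroxylases on collagen fell more often than they rose. Of 15 listed partners 3 rose and 11 fell (median −0.47), and 4 rose and 11 fell after the correction. The list includes P4HA3, P3H1, P3H2 and P3H3, which are prolyl hydroxylases themselves but not among the members. LOXL2, which cross-links collagen through lysine, had 53.6 and 52.5 CPM with hairpin 1 and 127 and 124 CPM with hairpin 2, against 191 and 181 CPM in control libraries, a log2 fold change of −1.19 (SE 0.036). LOXL1, a relative, was at −1.01 (SE 0.043), and PPIB, a prolyl isomerase of the endoplasmic reticulum, at −0.80 (SE 0.032), or −0.32 after the correction. All 7 fibroblast markers checked fell as well, and their summed level was 806 to 896 CPM in knockdown libraries and 1280 to 1281 CPM in control libraries. LUM was at 144, 135, 190 and 190 CPM in the knockdown libraries and 201 and 213 CPM in control libraries, while COL1A2 was at 0.05 to 0.26 CPM in knockdown libraries and 0.35 to 0.56 CPM in control libraries. Their part in the falls of PLOD1 and PLOD3 was not tested. The summed endothelial and leukocyte markers stayed under 7.5 CPM in each library, with CD3E at 0 in all of them. The summed epithelial markers were at 17.7 and 19.8 CPM with hairpin 1 and 25.7 and 26.4 CPM with hairpin 2, against 20.2 and 20.3 CPM in control libraries. Of the 4 tested, EPCAM, KRT8 and KRT18 rose over both hairpins and KRT19 fell, the last no longer called after the correction (−0.18, adjusted p = 0.15). Their part in the results was not tested.

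Of the remaining members, ASPH and TMLHE rose. ASPH, which hydroxylates EGF-like domains, had 267 and 254 CPM with hairpin 1 and 287 and 288 CPM with hairpin 2, against 195 and 208 CPM in control libraries. TMLHE, which starts carnitine synthesis, had 10.5 and 10.4 CPM with hairpin 1 and 9.79 and 9.28 CPM with hairpin 2, against 7.14 and 7.11 CPM in control libraries. All knockdown libraries were above both controls, with ASPH at 0.44 (SE 0.041, adjusted p = 4.4e-05), or 0.15 after the correction, and TMLHE at 0.48 (SE 0.090, adjusted p = 0.0021). With hairpin 2 alone TMLHE was at 0.42, or 0.27 after the correction, and this call was lost without hairpin 2 replicate 1 (0.37, adjusted p = 0.068). OGFOD1, a prolyl hydroxylase of a ribosomal protein, was at 0.07 over both hairpins and did not pass, but was called lower after the correction, at −0.16 (adjusted p = 0.0033). PHYH, a peroxisomal hydroxylase of phytanoyl-CoA, was at −0.13 (SE 0.084, adjusted p = 0.24).

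**Figure D4:**
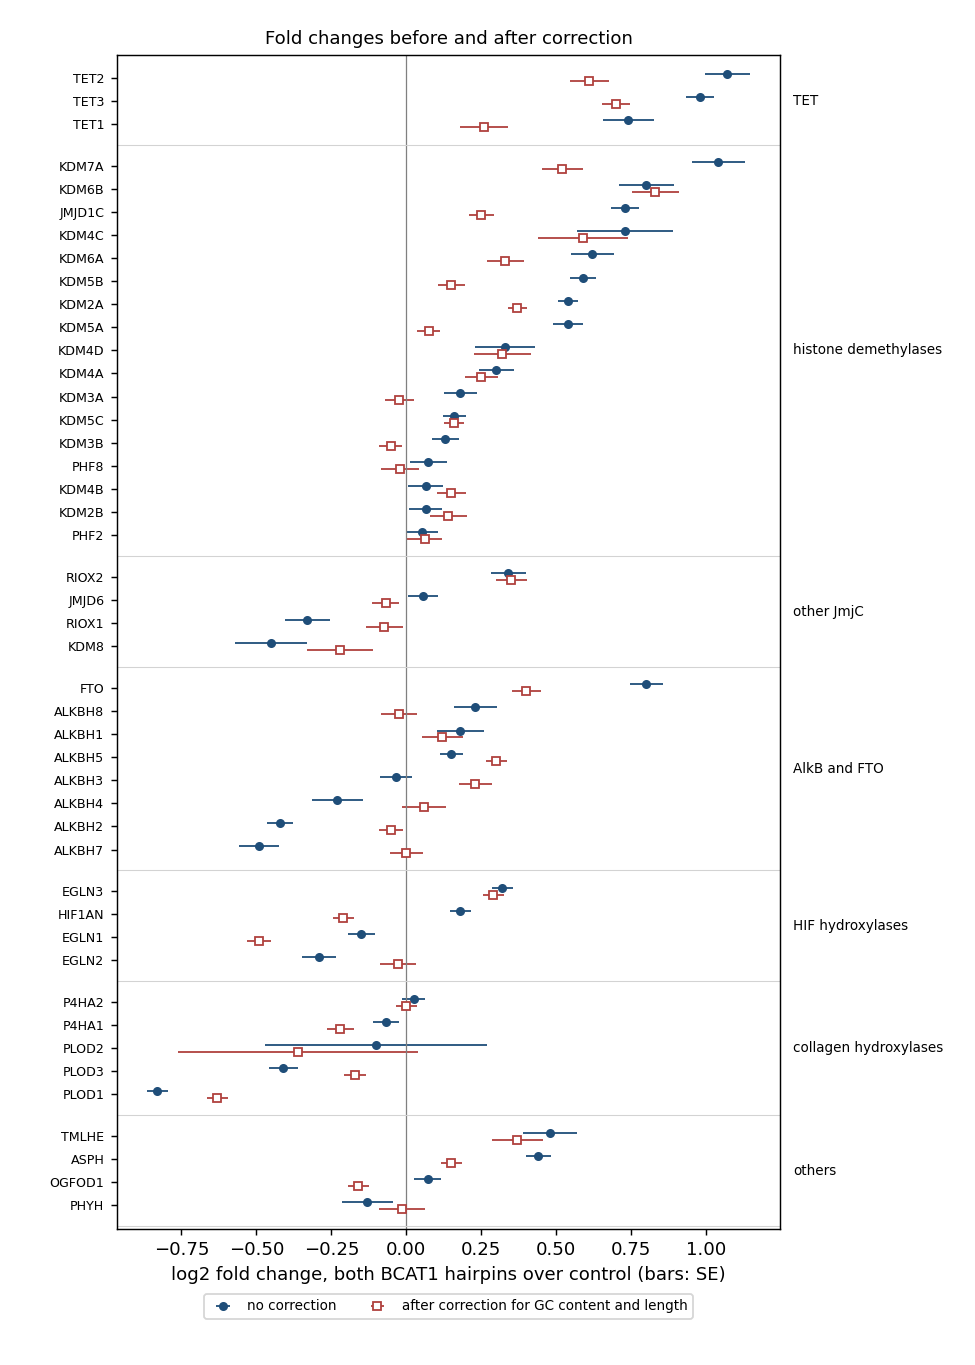
Log2 fold change of both hairpins over control with its SE (bars) for each of the 45 members, without correction (filled) and after correction of each library for GC content and transcript length (open). The TET genes and KDM6B stay above 0, PLOD1 and PLOD3 stay below 0, ALKBH7 and ALKBH2 move to about 0, and HIF1AN changes sign.

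Some of the smaller calls rested on single libraries. Leaving out each library in turn, 10 of the 33 calls over both hairpins were lost at least once, and 23 were kept throughout. Those lost, beside KDM8, RIOX1, ALKBH5 and EGLN1 above, were KDM3A, KDM3B, KDM4D, KDM5C, ALKBH4 and ALKBH8. KDM3A was at 0.18 and was lost without hairpin 1 replicate 1 (0.16), hairpin 2 replicate 1 (0.16) or control replicate 1 (0.10). KDM3B was lost without hairpin 1 replicate 2 (0.11), hairpin 2 replicate 2 (0.11), control replicate 1 (0.14) or control replicate 2 (0.12). KDM4D was lost without the first replicate of hairpin 1 (0.31), of hairpin 2 (0.30) or of control (0.25). For KDM5C the call over both hairpins, at 0.16, was lost without control replicate 2 (0.11). ALKBH8, at 0.23, was lost without hairpin 1 replicate 1 (0.20), hairpin 2 replicate 1 (0.21), control replicate 1 (0.19) or control replicate 2 (0.26). ALKBH4, at −0.23, was kept only without hairpin 2 replicate 2, and was between −0.18 and −0.28 without each of the others. After the correction KDM3A, KDM3B and ALKBH8 were at −0.02, −0.05 and −0.02, ALKBH4 was at 0.06, and none of them passed.

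Many members also differed between the hairpins themselves, and so did a large share of all genes. Hairpin 1 against control called 26 members higher and 9 lower, beside 24.2% and 24.9% of all genes (49.1% together), with a median of 0.22. Hairpin 2 against control called 20 higher and 12 lower, beside 23.9% and 25.4% of all genes (49.3% together), with a median of 0.21. These comparisons share their control libraries. Hairpin 2 against hairpin 1, a contrast in which the control libraries add only to the estimate of the spread, called 12 members higher and 16 lower, beside 22.9% and 23.3% of all genes (46.2% together). In a fit of the 13907 protein-coding genes alone, without correction, 8377 genes were called with hairpin 1, 8388 with hairpin 2 and 8045 between the hairpins. Of the members 36, 34 and 28 were called in that fit. After the correction 29 members were called with hairpin 1, 33 with hairpin 2 and 28 between the hairpins. Of the protein-coding genes 56.0%, 50.4% and 59.6% were called after it. The test of more than 1.5-fold, run without the correction, called 5 with hairpin 1 and 6 with hairpin 2, beside 9.44% and 7.46% of genes. The largest differences were those of PHF8 at −0.89 (SE 0.072), PLOD1 at −0.84 (SE 0.041) and TET3 at −0.70, and the differences of PHF8 and PLOD1 also passed the test of more than 1.5-fold, beside 9.47% of all genes. KDM5C, PHF8, PHF2, JMJD6 and P4HA2 were called in opposite directions against control. Each of these 5 was called between the hairpins too, which opposite calls make likely. How many of all genes were called in opposite directions was not counted, so this number does not set the members apart. The hairpin 2 calls of KDM5C, PHF2 and JMJD6 were each lost without some library, and that of KDM5C also after the correction. BCAT1 itself was 1.03 higher with hairpin 2 than with hairpin 1 on the log2 scale.

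**Figure D5:**
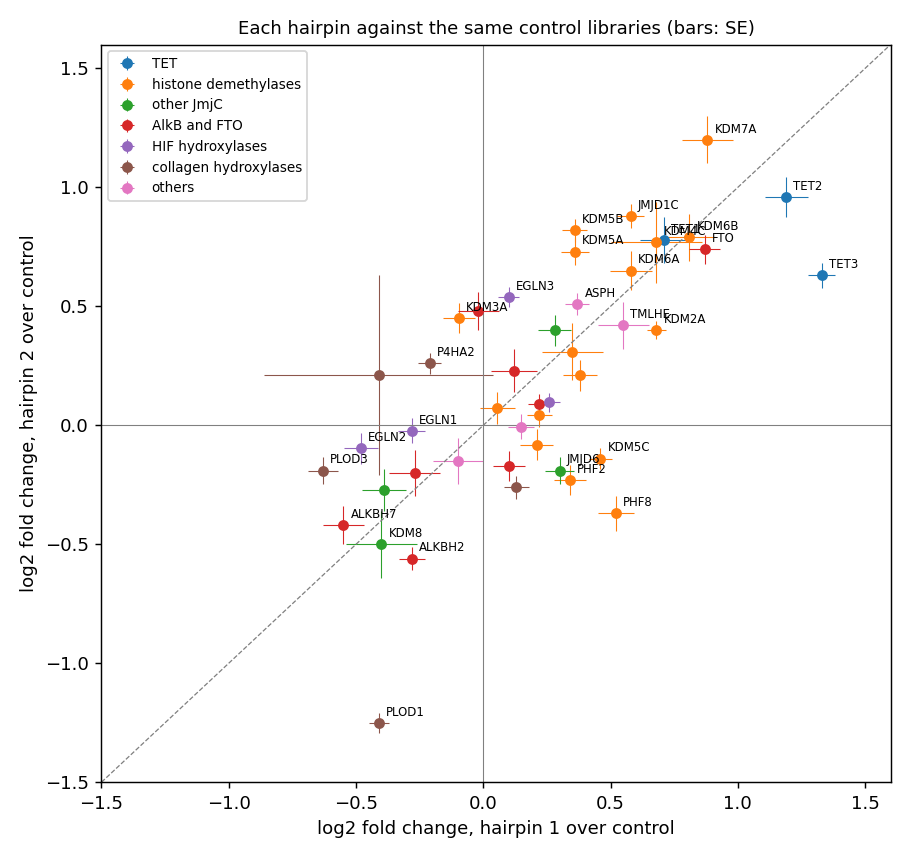
Log2 fold change over control with hairpin 2 (vertical) against hairpin 1 (horizontal) for the 45 members, with SE bars, coloured by role; both axes use the same control libraries, and the dashed line marks equal change. TET2, KDM7A, KDM6B and FTO lie high on both axes, PLOD1 lies far below the line, and PHF8, KDM5C, PHF2 and JMJD6 lie at the lower right.

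To compare genes with each other, CPM was divided by the length of the principal transcript in kilobases. In control libraries PLOD1 had the highest level on that scale, at 99.6 ± 0.77 CPM per kb (SD, n = 2), followed by PLOD3 at 71.3 ± 4.4, ALKBH2 at 57.7 ± 2.0, EGLN3 at 43.5 ± 0.59 and ASPH at 38.2 ± 1.8. ALKBH3, ALKBH7, ALKBH5, OGFOD1 and KDM5C followed at 22.7 to 24.7 CPM per kb, where neighbours lay within their SDs. The TET genes were low, with TET3 at 3.25 ± 0.14, TET2 at 1.65 ± 0.16 and TET1 at 1.32 ± 0.079 CPM per kb, and only KDM4C and PLOD2 were below TET1. Among the prolyl hydroxylases of HIF the order in control libraries was EGLN3, then EGLN2 at 16.9 ± 0.19, then EGLN1 at 13.2 ± 0.68 CPM per kb. With hairpin 2 the order at the top was different, with PLOD1 at 42.0 ± 1.4 CPM per kb. EGLN3 at 63.5 ± 1.9, PLOD3 at 62.6 ± 0.68 and ASPH at 54.6 ± 0.11 CPM per kb lay above it. The levels of EGLN3 and PLOD3 lay within their SDs.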

How the data were processed

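Libraries were made from total RNA with a TruSeq kit, per the labels' protocols, and the submitters' processing notes list HISAT2 2.2.0, StringTie and the build hg38. Values in the deposited file were raw counts for Ensembl genes, which the authors had not normalized. How multimapping reads and strand were handled is not given in the sources used here. Genes were filtered with filterByExpr (minimum count 10), scaled by TMM and fitted with edgeR 4.0.16 (R 4.3.3) on all 6 libraries, which left 3 residual degrees of freedom. Its quasi-likelihood test was used with Benjamini-Hochberg adjustment over 18734 genes. The common biological coefficient of variation was 8.7%. Transcript length and GC content came from the principal transcript in GENCODE 29, and the correction fitted both per library with mgcv 1.9.3 over 13907 protein-coding genes. Promoters came from RefSeq (GRCh38.p14). On simulated counts of both hairpins against control, 200 of 17872 genes were changed. Of those changed by 0.5, 1 and 2 on the log2 scale, 55.2%, 94.0% and 98.5% were recovered, and 5.71% of 175 calls were false. In the data 50.0% of genes were called, which moves the adjusted p, so these rates need not hold there. DESeq2 1.42.0 and limma-voom (limma 3.58.1) were alternatives.

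The members and the lists of other genes were chosen with earlier results of these data known. Values in each library were given for members with a called log2 fold change of 0.5 or more in size against control or between the hairpins, and up to 3 genes per list were named by smallest p. Other members and markers named singly were chosen after their values were seen. Replicate numbers did not pair libraries, as given in the closing section.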

Additional observations from a re-analysis of the deposited data

Results flagged for a closer look

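The hairpins target the same gene, and 28 of the 45 members differed between them in edgeR's test of hairpin 2 against hairpin 1 (adjusted p under 0.05), beside 46.2% of all genes. All 45 code for protein. In a fit of the 13907 protein-coding genes alone, 8045 genes and 28 members were called, so this count sets the members little apart. Each value below is hairpin 2 minus hairpin 1 on the log2 scale.

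Lower with hairpin 2 were PHF8 (−0.89), PLOD1 (−0.84), TET3 (−0.70), KDM5C (−0.60), PHF2 (−0.57) and JMJD6 (−0.49). The same held, with smaller differences, for P4HA1 (−0.39), KDM2B (−0.29), ALKBH2 (−0.29), KDM2A (−0.28), ALKBH3 (−0.28) and TET2 (−0.23). The remaining 4 of these 16 were KDM3B (−0.18), HIF1AN (−0.16), OGFOD1 (−0.15) and ALKBH5 (−0.13).

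Higher with hairpin 2 were KDM3A (0.54), ALKBH8 (0.50), P4HA2 (0.48), KDM5B (0.46), PLOD3 (0.45) and EGLN3 (0.44). EGLN2 (0.38), KDM5A (0.37), KDM7A (0.32), JMJD1C (0.30), EGLN1 (0.26) and ASPH (0.14) made up the other 6 of 12.

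The calls of 8 of these were lost when a library of either hairpin was left out. Without hairpin 1 replicate 1 they were TET2 (−0.22), ALKBH3 (−0.24), ALKBH5 (−0.14) and OGFOD1 (−0.11). Without hairpin 1 replicate 2 they were KDM3B (−0.13), KDM7A (0.26), TET2 (−0.25), ALKBH5 (−0.12), HIF1AN (−0.16) and ASPH (0.10). Without hairpin 2 replicate 1 they were KDM3B (−0.14), KDM7A (0.29), TET2 (−0.28), ALKBH5 (−0.13), HIF1AN (−0.15), OGFOD1 (−0.18) and ASPH (0.14). Without hairpin 2 replicate 2 they were KDM7A (0.35), TET2 (−0.18), ALKBH5 (−0.13), HIF1AN (−0.17), OGFOD1 (−0.13) and ASPH (0.14). ALKBH5 was also lost without control replicate 2 (−0.13).

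After the correction for GC content and length the differences of KDM7A (0.18), ALKBH5 (−0.07) and ASPH (0.036) were no longer called. JMJD1C was at 0.17 and OGFOD1 at −0.24. RIOX1 (0.21), ALKBH7 (0.21) and FTO (−0.19) were called between the hairpins only with it.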

How the results depend on the processing

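Length, GC content and few libraries limit these results. With 2 libraries a group, 55.2% of simulated log2 changes of 0.5 were recovered. That simulation changed 200 genes, far fewer than were called in the data, so the share does not carry over. Small differences may still go undetected, and PLOD2 is close to the detection limit. RLE scaling, DESeq2, limma-voom, no filter on low counts, a filter of at least 1 CPM in 2 libraries (which drops PLOD2), only the groups compared and, chosen after seeing the data, protein-coding genes without correction left 28 to 33 members called over both hairpins, 31 to 38 with hairpin 1, 29 to 34 with hairpin 2 and 23 to 29 between the hairpins. None of these settings turned the direction of a called member. A test for more than 1.5-fold called 6, 5, 6 and 2 members in the same order, and 13 of the 136 listed other genes, against 96 in the plain test.

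Leaving out each library in turn gave 25 to 31 members over both hairpins, 29 to 35 with hairpin 1, 25 to 31 with hairpin 2, 21 to 28 between the hairpins, and 83 to 95 listed genes. Calls lost at least once with hairpin 1 were KDM2B, KDM4C, KDM4D, KDM8, OGFOD1 and RIOX2, and with hairpin 2 ALKBH3, JMJD6, KDM4A, KDM5C, KDM8, PHF2, PLOD3, RIOX1 and TMLHE. Among these, values moved by over 1.5 times for OGFOD1 with hairpin 1 without control replicate 1 (0.09, against 0.15), KDM4A with hairpin 2 without hairpin 2 replicate 2 (0.12, against 0.21) and RIOX1 with hairpin 2 without control replicate 1 (−0.15, against −0.27).

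The replicate numbers shared by the groups did not pair libraries: deviations from the group means correlated by −0.0331 between the hairpins, 0.00435 between hairpin 1 and control and −0.0377 between hairpin 2 and control. With the replicate block 32 members were called over both hairpins, 32 with hairpin 1, 30 with hairpin 2, 25 between the hairpins, and 97 listed genes, and the call of ALKBH4 over both hairpins was lost.

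The correction for GC content and length gave 27, 29, 33 and 28 members and 90 listed genes, and with the replicate block 27, 29, 30 and 29 members and 91 listed genes. It turned directions, by its construction as a shift of each gene with its GC content and length. In the pairs that follow, the second value is with the replicate block as well. Over both hairpins these were KDM3A (−0.024 and −0.024), KDM3B (−0.052 and −0.053), ALKBH3 (0.23 and 0.23), ALKBH4 (0.059 and 0.057), ALKBH7 (0.00046 and 0.00034), ALKBH8 (−0.023 and −0.024), HIF1AN (−0.21 and −0.21) and OGFOD1 (−0.16 and −0.16). With hairpin 1 they were KDM5A (−0.062 and −0.062), KDM5B (−0.039 and −0.04), ALKBH2 (0.066 and 0.066), HIF1AN (−0.1 and −0.099) and OGFOD1 (−0.039 and −0.04). With hairpin 2 they were KDM3B (−0.14 and −0.14), RIOX1 (0.03 and 0.031), ALKBH3 (0.11 and 0.11), ALKBH7 (0.11 and 0.11), EGLN2 (0.2 and 0.2), HIF1AN (−0.32 and −0.32) and PLOD3 (0.097 and 0.097).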

Other observations

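Some dioxygenases of the same kind outside the 45 were also counted. The prolyl hydroxylases P4HA3, P3H1, P3H2 and P3H3 are not among them, as they were listed with the collagen partners. Of 15 listed, 13 were tested, and 2 rose and 5 fell over both hairpins (median −0.25). After the correction for GC content and length 3 rose and the others did not pass. RSBN1, a histone demethylase, had 22.5 and 23.4 CPM with hairpin 1 and 22.4 and 21.5 CPM with hairpin 2, against 13.7 and 14.7 CPM in control libraries, a log2 fold change of 0.66 (SE 0.073) or 0.26 after the correction. P4HTM, a transmembrane prolyl hydroxylase, was at −0.55 (SE 0.13) and did not pass after the correction (−0.21, adjusted p = 0.22).

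Enzymes that make or use alpha-ketoglutarate or its competitors moved both ways, with 6 of 21 higher and 7 lower, or 9 and 5 after the correction. The 21 include BCAT1, the target of the hairpins, whose fall was set by the design. IDH2, which makes alpha-ketoglutarate from isocitrate in mitochondria, had 194 and 203 CPM with hairpin 1 and 191 and 180 CPM with hairpin 2, against 306 and 288 CPM in control libraries, a log2 fold change of −0.63 (SE 0.041). PSAT1, a transaminase of serine synthesis that yields alpha-ketoglutarate, had 259 and 276 CPM with hairpin 1 and 152 and 152 CPM with hairpin 2, against 126 and 136 CPM in control libraries. Its log2 fold change was 0.22 with hairpin 2, or 0.13 after the correction, and 1.03 with hairpin 1, and the difference was −0.81 (adjusted p = 4.8e-06).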
